A study of Homo sapiens with 6 samples.

Results

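The genes described here are 10 targets of growth factor signalling through the ERK kinases that feed back on it or carry its output: the phosphatases DUSP1, DUSP4, DUSP5 and DUSP6, the inhibitors SPRY2, SPRY4 and SPRED1, the transcription factors ETV4 and ETV5, and PHLDA1. They were taken by symbol from a list of names; the rule sets no threshold on measured values, though the list was drawn up with earlier results of these data known. All 10 were found among the 24305 gene symbols of the deposited tables and among the 14452 genes tested. Bulk RNA sequencing was done on DU 145, a human prostate cancer cell line, in 3 libraries treated for 48 h with the PARP inhibitor talazoparib and 3 control libraries. The control label reads "DMOS", which was read here as the solvent DMSO, and the labels do not say which of the doses named in the series' design (5, 10 and 20 µM) these libraries received. The design describes DU 145 as lacking homologous recombination repair and asks what the drug does to the transcriptome of such cells. The labels name no genetic change and do not say whether replicates were separate cultures; p-values therefore reflect library-to-library spread, part of which may be technical.

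ERK is switched on by a chain of kinases that starts at growth factor receptors and runs through RAS, RAF and MEK. Active ERK raises the transcription of its own inhibitors: dual-specificity phosphatases (DUSP) that remove the activating phosphates from MAP kinases, and Sprouty (SPRY) and SPRED proteins that act further up, near the receptor and RAS. The levels of several of these mRNAs, together with those of the ETS-family factors ETV4 and ETV5, are widely used as a readout of ERK activity in tumour cells. No phosphorylated protein was measured here, so what follows concerns mRNA levels alone.

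Libraries held 39123997 to 39585727 counts. DU 145 identity was checked on marker lists: 7 epithelial keratin and adhesion genes summed to 1500 to 1780 CPM (counts scaled by library size) in controls and 1970 to 2120 CPM with the drug, with KRT5 at 0 counts. Markers of other cells were low. Fibroblast genes (3 of 6 at 0: COL1A2, DCN and LUM) summed to 23.5 to 27.1 CPM in controls and 16.7 to 22.1 CPM with the drug, and haematopoietic genes (PTPRC and CD3E at 0) to 0.895 to 1.04 and 1.42 to 2.2 CPM. Prostate luminal genes summed to 20.3 to 22 and 11.6 to 15.1 CPM, endothelial genes to 0.228 to 0.46 and 0.379 to 0.608 CPM, and neuroendocrine genes to 1.49 to 2.05 and 1.88 to 2.05 CPM. Their part in the results was not tested. Changes between the groups ran along the composition of the mRNA. Genes were split into 10 equal classes (deciles) by GC content and by length. Median log2 fold changes were -0.73 in the lowest GC decile, 0.43 in the highest, 0.35 among the shortest genes and -0.65 among the longest. The libraries of a group differed along the same axis: relative to each gene's mean, the median of the lowest GC decile stood at -0.69 in talazoparib replicate 2 and -0.10 in talazoparib replicate 3. For that reason the GC content and length of each member are given beside its value, with the log2 fold change from a fit in which the trend over both was removed, called trend-removed below.

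Of the 10 feedback genes, 2 rose with talazoparib (DUSP1 and ETV5), 1 fell (SPRED1) and 7 did not pass edgeR's quasi-likelihood test at an adjusted p of 0.05. That is 30% of the members, against 56.7% of all genes tested (26.8% higher and 29.9% lower). Log2 fold changes ran from -0.61 to 0.62 with a median of 0.02, and the median over all genes was 0.00. In absolute size the median was 0.19 for the members and 0.41 for all genes. The groups did not overlap in 2 of the 10 members, DUSP1 and ETV5, and in 64.4% of all genes.

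**Figure D1:**
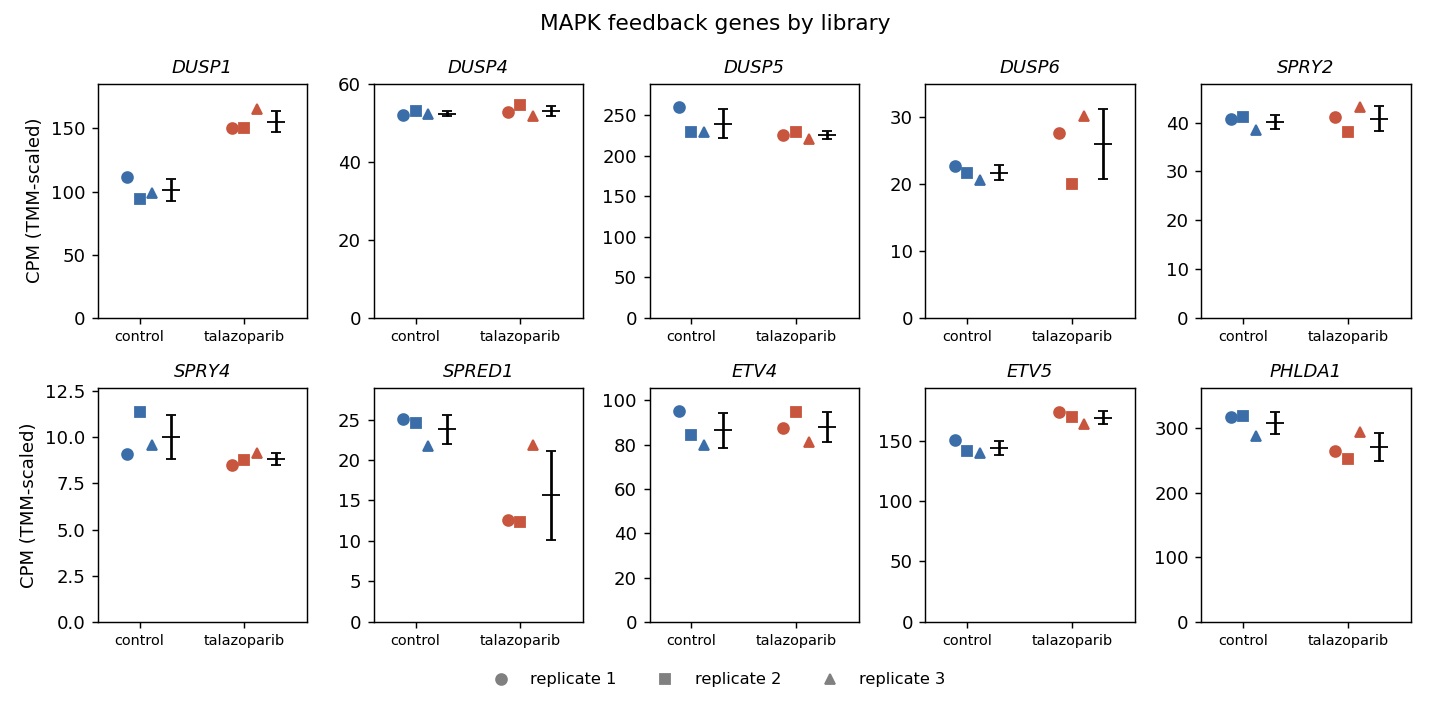
CPM (vertical axes, from 0) of each member in the 3 control and 3 talazoparib libraries; marker shapes give the replicate number, and the bar beside each group is its mean with SD. DUSP1 and ETV5 have all talazoparib points above all control points, while talazoparib replicate 3 of SPRED1 (21.9 CPM) lies among the controls.

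DUSP1, which encodes a nuclear phosphatase (MKP-1) acting on p38, JNK and ERK, had the largest rise. The gene spans 3106 bp on the minus strand of chromosome 5 (172768090 to 172771195, GRCh38, GENCODE release 29, as for the positions of the other members). It stood at 111, 93.8 and 98.7 CPM in control replicates 1 to 3 and at 151, 151 and 165 CPM in talazoparib replicates 1 to 3. All drug-treated libraries were above all controls. The log2 fold change was 0.62 ± 0.08 (SE), a 1.54-fold rise (95% interval 1.35 to 1.74, edgeR adjusted p = 8.1e-05). DUSP1 has 55.1% GC and 2013 nt, and in its GC decile 41.4% of genes rose and 7.88% fell, with a median of 0.24. Trend-removed, the value was 0.26 ± 0.06 (edgeR adjusted p = 0.00447). The rise passed the test under every alternative run, with values from 0.20 to 0.65. In bulk RNA, more transcript per cell and more cells expressing the gene cannot be told apart.

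The promoter of DUSP1 is shown because this gene had the largest change of the list, and that of SPRED1 because it was the only member that fell. RefSeq windows (GRCh38.p14) of 250 bases before to 50 after the start were matched for 6 of the 10 members: DUSP1, DUSP6, SPRY2 (3 windows), SPRY4, SPRED1 and PHLDA1. Motifs were searched on both strands: the CArG box bound by serum response factor, the cAMP response element TGACGTCA, the AP-1 site TGANTCA, the ETS site CCGGAAGT and the SP1 box GGGCGG. The sequences run 5′ to 3′ on the strand of the gene, with motif matches in capitals. DUSP1 lies at chr5:172771146-172771445 (minus strand) and SPRED1 at chr15:38252586-38252885 (plus strand).
DUSP1: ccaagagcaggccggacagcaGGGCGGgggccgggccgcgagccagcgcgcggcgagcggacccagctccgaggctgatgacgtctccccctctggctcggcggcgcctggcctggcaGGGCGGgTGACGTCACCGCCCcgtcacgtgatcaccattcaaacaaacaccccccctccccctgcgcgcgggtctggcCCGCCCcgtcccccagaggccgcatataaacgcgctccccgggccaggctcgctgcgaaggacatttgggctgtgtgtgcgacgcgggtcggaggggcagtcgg
SPRED1: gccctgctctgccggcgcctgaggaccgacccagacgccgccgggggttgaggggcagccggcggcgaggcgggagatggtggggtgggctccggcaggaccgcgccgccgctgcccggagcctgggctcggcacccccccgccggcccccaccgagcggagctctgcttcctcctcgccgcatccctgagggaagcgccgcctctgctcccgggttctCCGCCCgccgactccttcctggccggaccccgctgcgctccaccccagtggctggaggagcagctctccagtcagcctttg

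The window of DUSP1 held TGACGTCA at 125 to 118 bases before the start, with a GGGCGG box on each side of it (132 to 127 and 117 to 112 bases before the start), and no overlap between matches. Of 35116 promoter windows, 1.85% held TGACGTCA and 45% held GGGCGG. SPRED1 had a GGGCGG match at 31 to 26 bases before the start and none of the other motifs. No CArG box, TGANTCA or CCGGAAGT was found in the windows of the 6 members (1.29%, 7.71% and 4.14% of all windows). A match describes these letters and is no evidence of binding.

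The other phosphatases did not pass the test. DUSP6 (chromosome 12, 89347232 to 89353271, minus strand), a cytoplasmic phosphatase that is selective for ERK, stood at 22.8, 21.7 and 20.5 CPM in controls and 27.7, 20.1 and 30.3 CPM with the drug. Talazoparib replicates 1 and 3 were above all controls and replicate 2 was below all of them. On the log2 scale the difference was 0.26 ± 0.14 (95% interval -0.04 to 0.57, edgeR adjusted p = 0.127). Without talazoparib replicate 2 it was 0.42 (edgeR adjusted p = 0.00606), and trend-removed it was 0.42 ± 0.12 (edgeR adjusted p = 0.0160), a call lost in that fit when control replicate 2 (0.41), control replicate 3 (0.37) or talazoparib replicate 1 (0.39) was left out. An antisense gene, AC024909.2, shares 1875 exon bases with DUSP6, and since the strand setting of the counting is not given, reads from the pair cannot be told apart.

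DUSP5 (chromosome 10, 110497838 to 110511544, plus strand), an inducible nuclear phosphatase that is also selective for ERK, stood at 261, 229 and 230 CPM in controls and 226, 229.6 and 220.01 CPM with the drug. Control replicate 1 was high, and the other 5 libraries lay close together. DUSP5 did not pass, at a log2 fold change of -0.09 ± 0.08 (95% interval -0.25 to 0.07, edgeR adjusted p = 0.325). The call depends on the scaling. With total counts in place of TMM the value was -0.16 (edgeR adjusted p = 0.0248), and in FPKM (counts scaled by library size and gene length) all 3 drug-treated libraries, at 88.4 to 88.8, were under the controls, at 95.6 to 105. Trend-removed, DUSP5 was lower by the test (-0.44 ± 0.04, edgeR adjusted p = 2.2e-05). It has 55.9% GC, and the median log2 fold change of its GC decile was 0.33.

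DUSP4 (chromosome 8, 29333064 to 29350668, minus strand), the nuclear phosphatase MKP-2, had the narrowest spread of the list among controls, with an SD of 1.18% of the mean. It stood at 51.8, 53.0 and 52.1 CPM in controls and 52.6, 54.4 and 51.8 CPM with the drug, and the groups overlapped. The log2 fold change of 0.02 ± 0.08 has a 95% interval of -0.15 to 0.18, or 0.901-fold to 1.14-fold. Its sign turned under total count scaling (-0.06). Trend-removed it was 0.14 ± 0.06 (edgeR adjusted p = 0.0629), and with the length trend alone removed DUSP4 passed as higher (0.42, edgeR adjusted p = 0.00136).

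Because total counts and TMM give different directions for small changes, the phosphatases were also set against each other within each library. The ratio of DUSP1 to DUSP5 in FPKM was 0.525, 0.505 and 0.529 in controls and 0.821, 0.808 and 0.923 with the drug. The ratio of DUSP6 to DUSP4 was 0.881, 0.820 and 0.790 in controls and 1.05, 0.740 and 1.17 with the drug, so these groups overlapped. These ratios, and those of SPRED1 to SPRY2 and of ETV5 to ETV4, were chosen after the values were seen and were not tested. They do not depend on the library scaling, but the GC and length trend was not removed from them.

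SPRED1 (chromosome 15, 38252326 to 38357249, plus strand), a membrane-bound inhibitor that brings the RAS inactivator neurofibromin to RAS, was the only member called lower. It stood at 25.0, 24.5 and 21.8 CPM in controls and 12.6, 12.4 and 21.9 CPM with the drug. Talazoparib replicates 1 and 2 were far under all controls, whereas replicate 3 lay within the control range, so the groups overlapped and the SD with the drug was 34.9% of the mean. SPRED1 fell to 0.657-fold, a log2 fold change of -0.61 ± 0.20 (95% interval -1.03 to -0.18, edgeR adjusted p = 0.0195). It was -0.93 without talazoparib replicate 3, and the call was lost without control replicate 1 (-0.60), control replicate 2 (-0.61) or talazoparib replicate 1 (-0.47). The call was also lost with the length trend alone removed (-0.12, edgeR adjusted p = 0.608) and in FPKM without the count filter (-0.70, limma adjusted p = 0.0585). SPRED1 has the lowest GC content of the list, 38.9%, and the longest deposited mRNA, 8892 nt. In its GC decile 66.9% of all genes fell and 2.11% rose, with a median of -0.67. Trend-removed, the value was 0.26 ± 0.18 (edgeR adjusted p = 0.264), so neither the direction nor the call held in that fit. Talazoparib replicate 3, the library in which SPRED1 was high, was also the drug-treated library with the smallest shift in the lowest GC decile, and the part of that shift in the SPRED1 values was not tested.

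The Sprouty genes encode inhibitors that are induced by growth factors and act between the receptor and RAF. SPRY2 (chromosome 13, 80335976 to 80340951, minus strand) stood at 40.8, 41.2 and 38.5 CPM in controls and 41.1, 38.1 and 43.2 CPM with the drug, with overlapping groups. Its log2 fold change was 0.02 ± 0.09 (95% interval -0.17 to 0.21, -0.05 under total count scaling) and 0.07 trend-removed. SPRY4 (chromosome 5, 142310427 to 142326455, minus strand) had the lowest level of the list, at 9.11, 11.4 and 9.57 CPM in controls and 8.51, 8.80 and 9.18 CPM with the drug. Talazoparib replicate 3 lay just above control replicate 1, and the other drug-treated libraries were under all controls. SPRY4 did not pass, at -0.18 ± 0.14 on the log2 scale (95% interval -0.48 to 0.11, edgeR adjusted p = 0.271). Trend-removed it was at -0.11. The ratio of SPRED1 to SPRY2 in FPKM was 0.239, 0.232 and 0.220 in controls and 0.119, 0.126 and 0.198 with the drug.

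The PEA3-family factors ETV4 and ETV5, which bind ETS sites and carry ERK output into transcription, gave different calls: ETV5 passed the test and ETV4 did not, and the difference between them was not tested. ETV5 (chromosome 3, 186046308 to 186110318, minus strand) stood at 151, 141 and 140 CPM in controls and 174, 169.7 and 164 CPM with the drug, and the groups did not overlap. It rose 1.18-fold (log2 fold change 0.23 ± 0.07, 95% interval 0.08 to 0.39, edgeR adjusted p = 0.0144). The call was lost without control replicate 2 (0.19), control replicate 3 (0.18) or talazoparib replicate 1 (0.21). ETV5 has 48.6% GC, and the median log2 fold change of its GC decile was -0.13, with 12.7% of genes higher and 32.9% lower. Trend-removed the rise was 0.30 ± 0.05 (edgeR adjusted p = 0.000619), and in that fit it passed with each library left out (0.27 to 0.34). The gene DGKG, on the same strand, shares 164 exon bases with ETV5 and had 364 to 519 counts against 5686 to 6691 for ETV5.

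ETV4 (chromosome 17, 43527844 to 43579620, minus strand) stood at 95.3, 84.4 and 80.03 CPM in controls and 87.6, 94.9 and 81.3 CPM with the drug, and the groups overlapped. The log2 fold change was 0.02 ± 0.09 (95% interval -0.17 to 0.22, edgeR adjusted p = 0.845), and -0.05 under total count scaling. ETV4 has the highest GC content of the list, 60.8%. In its GC decile 61.6% of genes rose, with a median of 0.38, and trend-removed ETV4 was lower by the test (-0.41 ± 0.06, edgeR adjusted p = 0.000147). The gene DHX8, on the opposite strand, shares 68 exon bases with ETV4 and had 4215 to 4893 counts. The ratio of ETV5 to ETV4 in FPKM was 1.05, 1.11 and 1.16 in controls and 1.32, 1.19 and 1.34 with the drug. That ratio was higher in every drug-treated library than in every control.

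PHLDA1 (chromosome 12, 76025447 to 76033932, minus strand), a pleckstrin homology-like protein used as an ERK output marker, stood at 317, 319 and 288 CPM in controls and 265, 252 and 295 CPM with the drug. Talazoparib replicates 1 and 2 were under all controls, and replicate 3 was above control replicate 3. PHLDA1 missed the threshold, at a log2 fold change of -0.19 ± 0.08 (95% interval -0.36 to -0.01, edgeR adjusted p = 0.0638). It passed as lower without control replicate 3 (-0.27), without talazoparib replicate 3 (-0.25) and under total count scaling (-0.26). PHLDA1 has 44.3% GC and 5913 nt, and 50% of the genes in its GC decile fell while 6.71% rose. Trend-removed, PHLDA1 was higher by the test (0.28 ± 0.07, edgeR adjusted p = 0.00821). The antisense genes AC011611.3 and AC011611.4 share 553 and 779 exon bases with it.

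With the trend removed, 4 members were higher (DUSP1, DUSP6, ETV5 and PHLDA1) and 2 were lower (DUSP5 and ETV4), or 60% of the list against 44% of the 13718 genes in that fit. DUSP1 and ETV5 were called higher with and without the trend. The members span 38.9% to 60.8% GC and 2013 to 8892 nt. Removing the trend moved SPRED1, DUSP6 and PHLDA1, with 38.9% to 46.7% GC, upward, and DUSP1, DUSP5 and ETV4, with 55.1% to 60.8% GC, downward; the other 4 moved less.

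**Figure D2:**
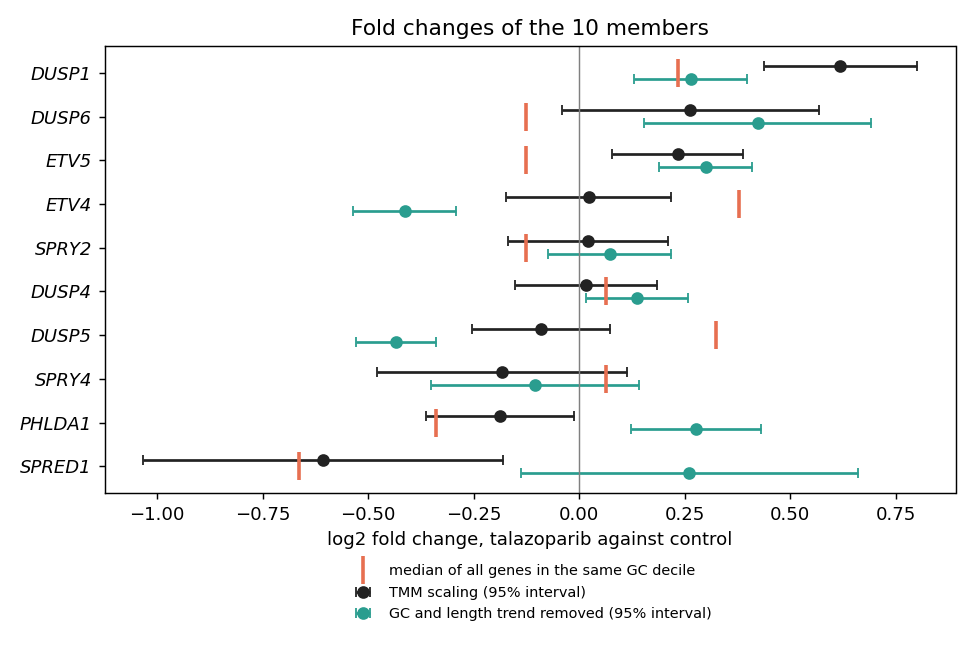
Log2 fold change of each member (horizontal axis) with 95% intervals, with TMM scaling (black) and with the GC and length trend removed (green); vertical ticks give the median of all genes in the same GC decile. DUSP1 and ETV5 lie above 0 in both fits. SPRED1 lies near its tick at -0.67 with TMM scaling and moves across 0 with the trend removed, to 0.26 with an interval that includes 0. DUSP5, ETV4 and PHLDA1 move across or away from 0 between the fits.

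Levels between genes were compared in FPKM, which divides by the deposited gene length. Among controls DUSP5 was the most abundant member, at 99.1 ± 4.97 FPKM (SD, n = 3), above 95.4% of the genes tested. PHLDA1 (53.4 ± 3.30) and DUSP1 (51.5 ± 3.17) followed with overlapping ranges, then ETV5 (36.2 ± 0.770) and ETV4 (32.7 ± 2.28). SPRY2 stood at 11.9 ± 0.535 FPKM, DUSP4 at 7.38 ± 0.279 and DUSP6 at 6.12 ± 0.247. SPRED1 (2.74 ± 0.193) and SPRY4 (1.44 ± 0.208) were lowest, and no other neighbours in this order overlapped. With the drug DUSP1 (75.3 ± 5.77) passed PHLDA1 (44.6 ± 4.67) in the order, and no other member changed rank. PHLDA1 then overlapped with ETV5 (40.4 ± 0.910), and DUSP4 (7.09 ± 0.0626) with DUSP6 (7.01 ± 1.57). The deposited lengths differ from the merged exon bases of the annotation for some members (DUSP6 has 3627 nt against 4632), which bears on the order between genes and not on changes within a gene.

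**Figure D3:**
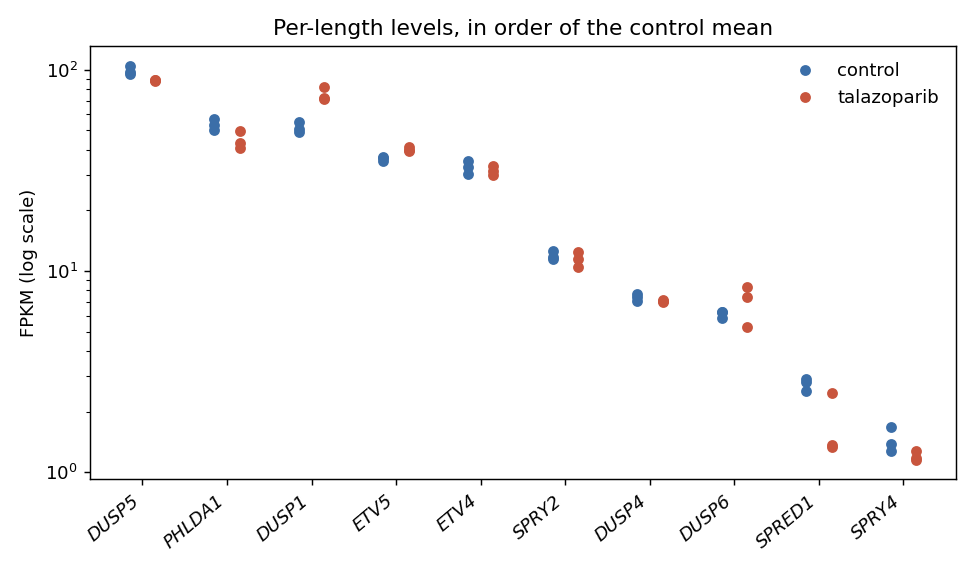
FPKM (vertical axis, log scale) of the members in each control (blue) and talazoparib (red) library, ordered by the control mean. DUSP5 is highest in both groups, and DUSP1 rises past PHLDA1 with the drug.

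The rest of the pathway was read from 7 lists of 81 genes, of which 77 were tested. DUSP2, SPRY3, ETV1 and EGR3 had at most 12 counts in a library and were not. Of the 77, 31 rose, 24 fell and 22 did not pass, and trend-removed 21 were higher and 27 lower. Without trend removal, these counts and those of each list stand beside 26.8% of all genes higher and 29.9% lower. The trend-removed counts stand beside 3048 genes higher and 2984 lower of the 13718 in that fit. The median log2 fold change was 0.01, against 0.00 for all genes. Among other MAPK phosphatases, 1 of 6 rose and 1 fell, and trend-removed 0 were higher and 2 lower. DUSP16, which acts on JNK, fell from 18.4 ± 0.0833 to 12.1 ± 1.22 CPM (SD, n = 3 each), a log2 fold change of -0.61 and, trend-removed, -0.27. That call was lost with the length trend alone removed (-0.23, edgeR adjusted p = 0.133) and with both trends removed and the replicate number as a block (-0.27, edgeR adjusted p = 0.0796). DUSP9, an ERK phosphatase, rose from 15.7 ± 1.18 to 19.9 ± 0.905 CPM, a call lost without control replicate 2 (0.28) or 3 (0.28) and with the replicate block (0.35, edgeR adjusted p = 0.0512). Trend-removed its sign turned (-0.12). DUSP14 (log2 fold change 0.18) and DUSP10 (-0.46) did not pass; DUSP14 was called higher with the GC trend removed (0.23) and DUSP10 lower without talazoparib replicate 3 (-0.77). Of 9 further Sprouty, SPRED and receptor feedback genes 4 rose and 3 fell, and trend-removed 1 was higher and 3 were lower. ERRFI1, an inhibitor of the EGF receptor that ERK signalling induces, rose from 68.7 ± 5.66 to 105.5 ± 4.68 CPM (log2 fold change 0.62, and 1.22 trend-removed). PHLDA2 rose (0.65) but was at 0.02 trend-removed. CBL, a ubiquitin ligase that removes active receptors, fell from 152 ± 23.2 to 62.6 ± 5.19 CPM (-1.28, and -0.67 trend-removed). SPRED2 fell from 50.7 ± 3.72 to 36.1 ± 2.12 CPM (-0.49, and -0.30 trend-removed), a call lost with the length trend alone removed (-0.18, edgeR adjusted p = 0.0986).

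Components upstream of the feedback genes moved both ways. Of 20 genes of the RAS to ERK core 7 rose and 9 fell, with a median of -0.41. In the trend-removed fit the count was 5 higher and 9 lower, and the median -0.08. Among those with the smallest adjusted p, 3 genes with 37.8% to 42.2% GC fell: the RAS inactivator NF1 (-1.54, and -0.60 trend-removed), the phosphatase PTPN11 (-1.09 and -0.44) and the exchange factor SOS1 (-1.54 and -0.59). Of 12 ERK substrates and target factors 6 rose and 4 fell, and trend-removed 5 were higher and 3 lower. The ETS factors ELK4 (-1.66, and -0.65 trend-removed) and ELK3 (-1.05 and -0.58) and the kinase RPS6KA3 (-1.18 and -0.33) fell, and the kinase MKNK2 rose (0.45) without passing trend-removed (0.06). Of 10 p38 and JNK kinases and their activators 4 rose and 5 fell, and trend-removed 2 were higher and 4 lower. MAPK8 (-1.14, and -0.37 trend-removed), MAPK9 (-0.98 and -0.38) and MAP2K4 (-1.25 and -0.72) of the JNK branch fell, and MAPK13, a p38 kinase, rose (0.61 and 0.66). COP1 (-0.20) and DET1 (-0.10), which belong to a ubiquitin ligase for ETV factors, did not pass. With total counts as the scaling COP1 was called lower (-0.28), as it was without control replicate 1 (-0.25), and it was called higher with the length trend removed (0.32).

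Among 18 genes of ERK transcriptional output 9 rose and 2 fell, with a median of 0.36 and, trend-removed, 8 higher and 6 lower (median 0.17). The genes of this list with the smallest adjusted p rose. They were the cytokine LIF (1.15, and 0.87 trend-removed) and the early response gene IER3 (0.69 and 0.16). Next came the EGF receptor ligand AREG (0.54 and 0.61) and the urokinase receptor PLAUR (0.56 and 0.26). None of the 6 genes that were lower trend-removed is among them. With EPHA2, EPHA4 and CCND1, 7 of the 10 members make up a published 10-gene score of MAPK output. In that score 2 genes rose, 1 fell and 7 did not pass, whereas trend-removed 4 were higher and 3 lower. Of all genes tested 56.7% were called either way, and trend-removed 44% were. CCND1, which encodes cyclin D1, fell from 411 ± 2.86 to 319 ± 8.87 CPM (log2 fold change -0.37, and -0.39 trend-removed). EPHA2 stood at 471 ± 22.5 and 477 ± 28.4 CPM and did not pass, but was lower by the test trend-removed (-0.33). EPHA4 was low at 0.545 ± 0.0894 and 0.987 ± 0.0460 CPM. Its call as higher was lost when any one of the 6 libraries was left out (0.69 to 0.91) and with DESeq2 (adjusted p = 0.0738). Trend-removed, EPHA4 was higher by the test (1.33, edgeR adjusted p = 0.00387). The drug's target PARP1 was at 408 ± 3.01 and 389 ± 22.4 CPM (edgeR adjusted p = 0.435), and passed as lower under total count scaling (-0.14, edgeR adjusted p = 0.0305).

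**Figure D4:**
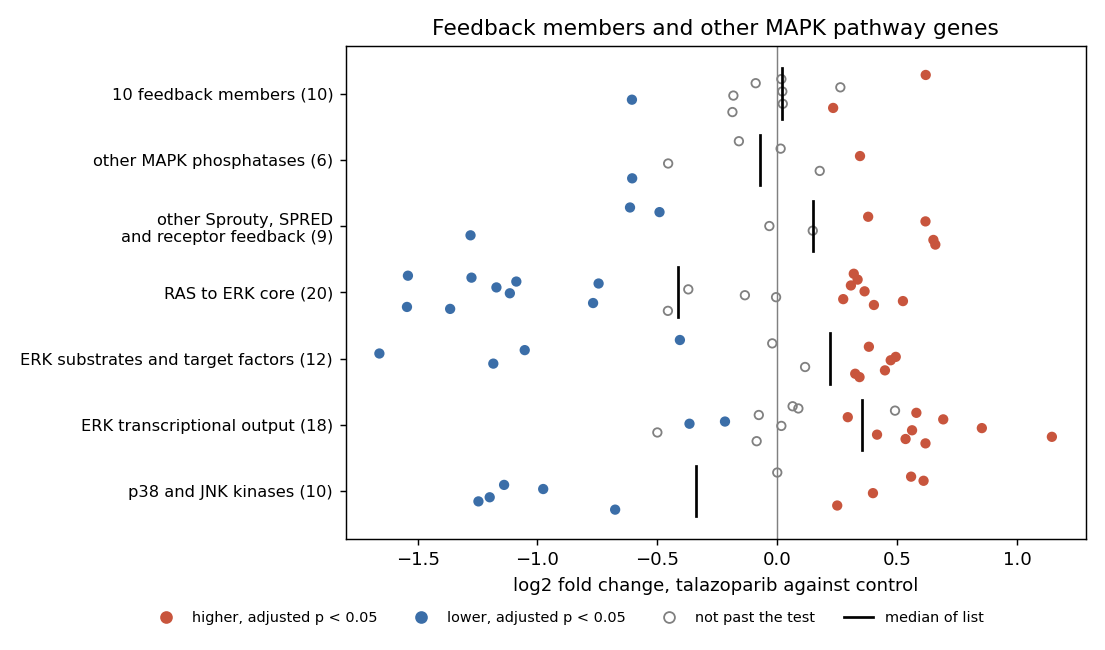
Log2 fold change (horizontal axis) of the 10 members and of the tested genes of 6 other MAPK pathway lists; filled points passed the test (red higher, blue lower), open points did not, and bars are list medians. The members lie between -0.61 and 0.62. Genes of the RAS to ERK core reach -1.54, ELK4 of the ERK substrates and target factors -1.66, and LIF of the ERK transcriptional output 1.15.

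The genes nearest in pattern were sought by the distance between deviations of log2 CPM from each gene's own mean over the 6 libraries, among 14451 other genes. For DUSP6 they were ARPC5 (distance 0.12), LYPLAL1 (0.16) and NEFL (0.18), and for PHLDA1 they were ACTR3B (0.06), TXNL1 (0.08) and LOC642846 (0.09). None of these 6 passed the edgeR test, with log2 fold changes of 0.18 to 0.22 for the first 3 and -0.22 to -0.20 for the others. TXNL1 missed the threshold narrowly (edgeR adjusted p = 0.0506). It was called lower with total counts as the scaling (-0.28), with limma-voom (-0.20) and in FPKM (-0.275 and -0.245). The same held without control replicate 1 (-0.225) or talazoparib replicate 3 (-0.26). Without talazoparib replicate 2, ARPC5 (0.34) and LYPLAL1 (0.36) were called higher. ACTR3B was called lower without talazoparib replicate 3 (-0.30). Trend-removed, ARPC5 (1.01), LYPLAL1 (0.99) and TXNL1 (0.66) passed as higher. The 6 points share library depth and composition, so these distances are a description. Fold changes near those of DUSP6 and PHLDA1 follow from how these genes were picked.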

How the data were processed

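RNA of 3 talazoparib and 3 control libraries of DU 145 was sequenced. Per the submitters' processing notes the reads went through Trimmomatic, HISAT2, Cufflinks and HTSeq on GRCh38; no version, annotation or strand setting is given in the sources used here. The authors deposited raw counts per gene symbol and FPKM values. Gene lengths were recovered from count, FPKM and column total; 99.9% of 21065 came out whole within 0.01 nt. Column names were matched to samples by line, group word and replicate number.

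Counts were tested with edgeR 4.0.16 (R 4.3.3): filterByExpr with a minimum count of 10, TMM scaling, the robust quasi-likelihood test, and Benjamini-Hochberg adjustment over all 14452 genes tested at 0.05. CPM values use TMM-adjusted library sizes, marker sums use total counts. SEs were derived from the log2 fold change and the F statistic, and 95% intervals use the t distribution with the test's degrees of freedom. For the trend-removed fit, each library's deviation of log2 CPM (prior count 2) was fitted over GC content (longest GENCODE release 29 transcript) and log2 deposited length with natural splines of 5 degrees of freedom and entered as an offset; 94.9% of tested genes had both values. In data simulated with the libraries' trends and no other change, 6353 of 13616 genes were called without the offset and 0 with it. The same spline form made and removed that trend, so this cannot show that the offset spares a response to the drug. In simulated counts for this comparison (14283 genes), 10% of 1.25-fold changes, 56% of 1.5-fold, 88% of 2-fold and 100% of 3-fold were called. Each of these changes was given to 50 genes and no change to 14252. In the data 8200 genes were called, and the p-value adjustment depends on that number. These shares therefore do not give the sensitivity of the test in the data.

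The members and lists were chosen with earlier results of these data known. All 10 members are named; of each other list up to 4 genes with the smallest adjusted p, the 3 genes nearest to DUSP6 and to PHLDA1, EPHA2, EPHA4, CCND1 and PARP1. Some genes that this rule names are not reported here. DESeq2 1.42.0, limma-voom (limma 3.58.1), other scalings and filters, limma on log2(FPKM + 0.1) and log2(FPKM + 1), GC or length trends, a replicate block and fits leaving out 1 library were the alternatives. The removal of each library within the trend-removed fit was added after seeing the data.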

Additional observations from a re-analysis of the deposited data

How the results depend on the processing

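Of 250 member values under alternatives, 162 kept direction and side of the threshold. A further 27 kept direction and came to pass it, and 8 kept direction and no longer passed. The other 53 turned sign and were counted as such whether or not they also crossed the threshold. Among these are trend-removed fits in which ETV4 and PHLDA1 came to pass and SPRED1 no longer passed. DUSP1 kept its call in all. The cause of the other changes was not tested. Members higher were 4 instead of 2 with the GC and length trend removed, with the GC trend removed, and with both trends and the replicate block; members lower were 2 instead of 1 in these fits and 3 under total count scaling and in FPKM with pseudocount 0.1 or 1. Leaving out 1 library gave 1 to 3 higher and 0 to 2 lower; with the GC and length trend removed as well, it gave 3 to 4 higher and 2 lower. Other pathway genes higher were 19 instead of 31 with the GC trend removed, and 19 with both trends and the block.

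Same-numbered libraries did not deviate together (correlations -0.173 to 0.004, and 0 of 6 libraries correlated best with its own number), so the numbers were not taken as pairs. The replicate block gave 7580 genes changed against 8200, with 2 members higher and 1 lower and no member call changed, and 5130 with both trends removed.

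Signs turned as follows. Under total count scaling DUSP4 was at -0.058, SPRY2 -0.051, ETV4 -0.051 and EPHA2 -0.057. In FPKM, values at pseudocount 0.1 (with or without the filter) and at 1 were -0.057 and -0.051 for DUSP4, -0.054 and -0.05 for SPRY2, -0.05 and -0.049 for ETV4, and EPHA2 was at -0.057 in all. With both trends removed, without and with the block, SPRED1 was at 0.261 and 0.25, ETV4 at -0.413 in both, PHLDA1 at 0.277 and 0.281, DUSP9 at -0.115 and -0.117, DUSP10 at 0.063 and 0.03, COP1 at 0.133 in both, EPHA2 at -0.329 in both, ACTR3B at 0.018 and 0.016 and TXNL1 at 0.661 and 0.664. With the GC trend removed DUSP4 was at -0.052, SPRED1 0.097, ETV4 -0.368, PHLDA1 0.227, DUSP9 -0.104, EPHA2 -0.363 and TXNL1 at 0.547. With the length trend removed SPRY4 was at 0.21, ETV4 -0.06, PHLDA1 0.086, DUSP10 0.009, COP1 0.319, ACTR3B 0.133 and TXNL1 at 0.236. Leaving out 1 library, trend removed or not, gave -0.03 to 0.161 for DUSP4, -0.042 to 0.116 for SPRY2 and -0.454 to 0.078 for ETV4. In the same fits PHLDA1 was at -0.268 to 0.36 and SPRED1 at -0.93 to 0.407. For EPHA2 the range was -0.045 to 0.053 without trend removal, and its trend-removed fit was not run with a library left out.

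Small changes were often missed in simulated counts, where 10% of 1.25-fold changes were called. With TMM scaling, the fitted changes of all members but DUSP1 and SPRED1 were smaller than 1.25-fold. The share missed in the data is not known from this, because the p-value adjustment depends on how many genes change. The simulation gave 14252 genes no change, whereas 8200 of 14452 genes were called in the data. Among the smaller changes, ETV5 (1.18-fold) passed the test and DUSP6 (1.2-fold) did not. With TMM scaling, the 95% intervals of DUSP4, SPRY2 and ETV4 together reach from 0.887-fold to 1.16-fold. Trend-removed, the intervals on the log2 scale were 0.02 to 0.26 for DUSP4, -0.07 to 0.22 for SPRY2 and -0.54 to -0.29 for ETV4.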
